A study of Mus musculus with 5 samples.

Results

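The genes described here are the drug and steroid metabolizing enzymes of 4 families, the cytochrome P450s (Cyp) of the CYP1 to CYP4 families, the UDP-glucuronosyltransferases (Ugt), the glutathione S-transferases (Gst) and the sulfotransferases (Sult). They were chosen by symbol: every probe whose platform gene symbol had the family name, the subfamily letter and a closing number. This gave 114 probes for 92 genes, out of 24613 probes and 15967 named genes on the Illumina array: 48 Cyp, 20 Gst, 12 Sult and 12 Ugt genes.

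The samples were F9 cells. This mouse line was derived from embryonal carcinoma and forms extra-embryonic endoderm in retinoic acid. The Sox7/Sox17 KD group (3 arrays) had both SOX transcription factors knocked down, and the Control group (2 arrays) held control cells. All 5 samples carried the same retinoic acid treatment label and came from the same line. The sources used here do not give the dose and duration of retinoic acid, the method of the knockdown or what was done to Control cells. The labels do not say whether the replicates were separate cultures, so p-values measure only how far these samples spread, and that spread may be technical.

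Cytochrome P450s are membrane-bound enzymes that oxidise lipophilic drugs, steroids, fatty acids and dietary chemicals, with electrons passed on from NADPH. The other families join a water-soluble group to such molecules: glucuronic acid from UDP-glucuronic acid (Ugt), glutathione (Gst) or a sulfonate group from the donor PAPS (Sult). Many of these genes are known for high levels in liver, gut and kidney, where nuclear receptors, the aryl hydrocarbon receptor and the oxidant-sensing factor Nrf2 raise their transcription.

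Values are the authors' normalized intensities, on a linear scale with the background already subtracted. The noise threshold of each array was the 90% quantile of the sizes of its values below 0, and lay at 20.1 to 20.2 units. Between 52.6% and 52.7% of probes per array were above it. Differences are Sox7/Sox17 KD minus Control on the log2(intensity + 16) scale, with values below 0 set to 0, which understates the change of dim probes. Each was tested with limma over the 13624 probes that passed the threshold on 2 or more of the 5 arrays of either group, and a call is a Benjamini-Hochberg adjusted p below 0.05. Arrays correlated at 0.992 to 0.993 within a group and 0.974 to 0.978 between groups. The Sox17 probe fell in Sox7/Sox17 KD cells, with 283, 309 and 243 units there against 1798 and 1732 in Control cells (-2.60, SE 0.12, limma adjusted p = 0.00081). The Sox7 probe fell too, with 490, 403 and 471 units in Sox7/Sox17 KD cells against 1306 and 1152 in Control cells (-1.40, SE 0.13, limma adjusted p = 0.0021). Of the embryonal carcinoma markers, 8 of 8 with a probe were above the threshold on all 5 arrays.

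Which of the enzymes were expressed at all was asked first, counting a gene as expressed where a probe was above the threshold on every array of at least 1 group. By that measure 31 of the 92 genes were expressed (33.7%), against 57.0% of all named genes. The families differed widely. Glutathione S-transferases were expressed in 16 of 20 cases (80.0%), whereas 9 of 48 P450s (18.8%), 2 of 12 sulfotransferases (16.7%) and 4 of 12 glucuronosyltransferases (33.3%) were. In all, 24 genes were above the threshold on all 5 arrays, and 54 on none.

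The genes above the threshold on no array comprised 33 P450s, 9 sulfotransferases, 8 glucuronosyltransferases and 4 glutathione S-transferases, with values between -28.3 and 20.1 units. They included P450s best known from liver. Cyp1a2, an oxidiser of caffeine and arylamines, had 4.29, -1.22 and 4.57 units in Sox7/Sox17 KD cells against -0.035 and 4.77 units in Control cells. Cyp3a11, the main drug-oxidising CYP3A enzyme of mouse liver, had -15.5, -1.48 and -11.7 units in Sox7/Sox17 KD cells against -10.2 and -14.8 units in Control cells. Cyp2e1, the ethanol-oxidising P450, had 12.7, 8.78 and 16.2 units in Sox7/Sox17 KD cells against 6.51 and 17.7 units in Control cells. None of these values stands clear of noise in either group, and the same held for Cyp2r1, a vitamin D 25-hydroxylase, and for 8 of the 11 Cyp2c genes. The estrogen sulfotransferase Sult1e1 and the bilirubin glucuronosyltransferase Ugt1a1 were likewise above the threshold on no array. Of the glutathione S-transferases, Gsta1, Gstm3, Gsto2 and Gstt4 were above it on none. A value under the threshold bounds a level at this signal over background and does not show that a transcript was absent. The other 7 genes (Cyp2c29, Cyp2c37, Cyp2d26, Cyp2d9, Cyp2j9, Cyp3a13 and Sult3a1) passed the threshold on some arrays but on every array of neither group.

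**Figure D1:**
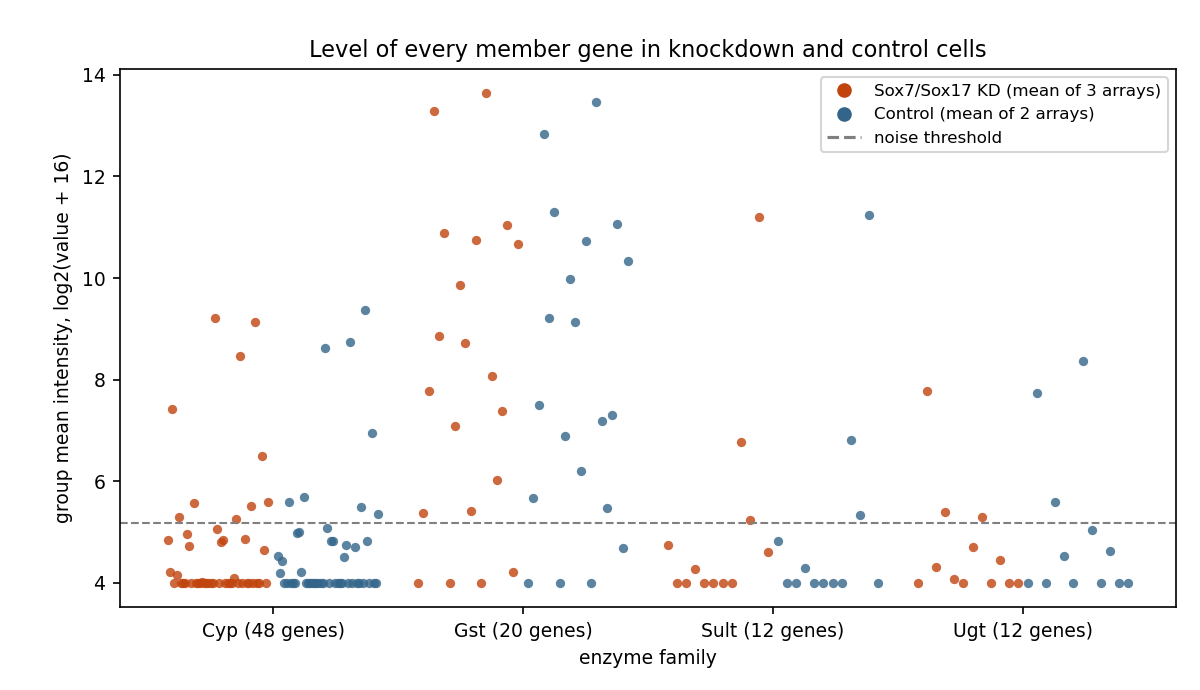
Level of each of the 92 genes by family, as the group mean intensity on a log2(value + 16) axis, with Sox7/Sox17 KD (mean of 3 arrays) left of Control (mean of 2 arrays) and the noise threshold dashed. Most Cyp and Sult points lie under the threshold in both groups, while 16 of the 20 Gst genes were expressed.

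Of the 92 genes, 33 could be tested and 59 could not. In the limma fit, 6 of the 33 were called (18.2%), close to the 17.0% of all 9685 genes tested, so the share of changed genes among these enzymes was near the background. The called genes split into 4 that rose, against 8.99% of all genes, and 2 that fell, against 7.97% of all genes. The median difference over the 33 genes was -0.02, against 0.0047 over all genes tested. Every Sox7/Sox17 KD array lay on one side of every Control array for 17 of the 33 genes, against 51.6% of all genes tested. Cyp1b1, Cyp2j9, Ugt2b34 and Ugt2b35 passed the filter only through the group in which they were high, so these counts carry that selection. In bulk RNA such as this, fewer cells of a type and less RNA per cell cannot be told apart.

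**Figure D2:**
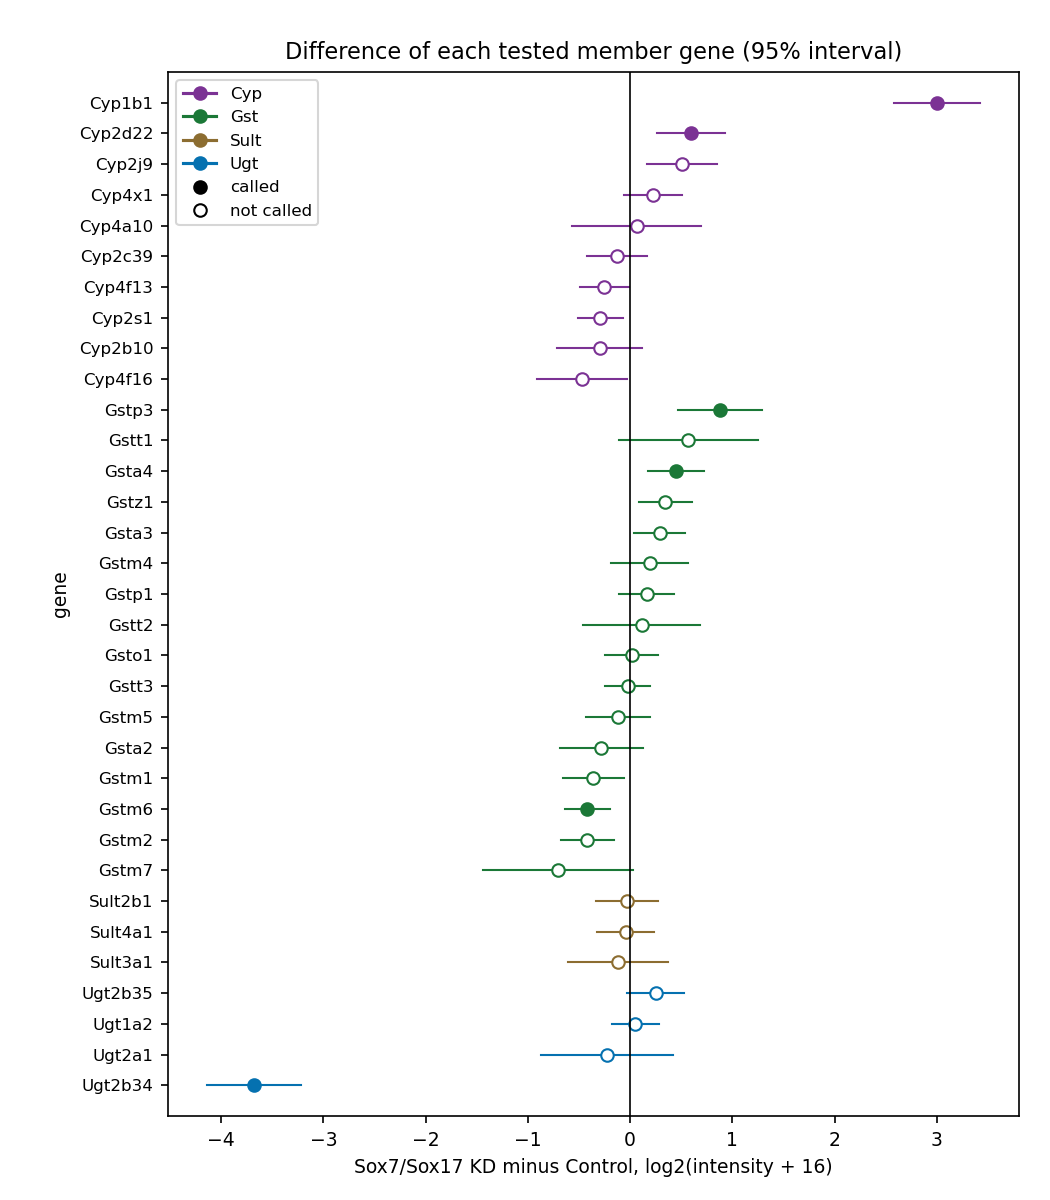
Difference of each of the 33 tested genes, Sox7/Sox17 KD minus Control on the log2(intensity + 16) scale, with its 95% interval, coloured by family and filled where called. Cyp1b1 at 3.00 and Ugt2b34 at -3.68 stand apart, sizes that depend on the offset because 1 group of each lies under the threshold, and the other 31 lie between -0.71 and 0.88.

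Among the P450s, 10 genes were tested in the limma fit, of which 2 rose, 0 fell and 8 were not called. At an unadjusted p below 0.05, 3 were higher and 3 lower. The share of all genes at that level was not counted, so no unadjusted count here or below is read as a result. Cyp1b1 hydroxylates estradiol and polycyclic aromatic hydrocarbons, and outside the liver it is a known target of the aryl hydrocarbon receptor, as are Cyp1a1 and Cyp1a2. Its probe (ILMN_1232716) read 141, 171 and 151 units in Sox7/Sox17 KD cells, against 1.84 and 9.37 units in Control cells. All 3 Sox7/Sox17 KD arrays were far above the threshold and both Control arrays under it, so the transcript was detected in Sox7/Sox17 KD cells alone. The means were 155 ± 15.2 units (SD, n = 3) in Sox7/Sox17 KD cells and 5.61 ± 5.33 units (SD, n = 2) in Control cells, at least 7.64-fold higher (limma adjusted p = 0.00081). This bound sets the threshold in place of the Control signal. The call held with any 1 array left out, where the adjusted p reached at most 0.014. Those fits kept the filter over all 5 arrays, which Cyp1b1 passed only through Sox7/Sox17 KD, where it was high.

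The other CYP1 genes did not share this. Cyp1a1, the classical aryl hydrocarbon receptor target, had 18.0, 11.7 and 7.86 units in Sox7/Sox17 KD cells against 3.01 and 11.1 units in Control cells, all under the threshold. Ahr, the receptor itself and chosen here after its values were seen, averaged 22.2 ± 2.56 units (SD, n = 3) in Sox7/Sox17 KD cells and 16.4 ± 3.74 units (SD, n = 2) in Control cells, with a difference of 0.24 that was not called (limma adjusted p = 0.23). Both Control arrays and Sox7/Sox17 KD replicate 1 were under the threshold for Ahr. It therefore lay close to noise and passed the filter only through Sox7/Sox17 KD. The promoters of the 2 genes are printed to show what a pair of CYP1 relatives with unlike readouts have before their starts. They are the 250 bases before the start in the RefSeq annotation of GRCm38.p6, 5′ to 3′ on the gene's strand, Cyp1b1 at chr17:79715062-79715311 on the minus strand and Cyp1a1 at chr9:57697363-57697612 on the plus strand. Capitals mark matches on either strand to the SOX motif AACAAT (reverse complement ATTGTT) and to the dioxin response core GCGTG (reverse complement CACGC).
Cyp1b1: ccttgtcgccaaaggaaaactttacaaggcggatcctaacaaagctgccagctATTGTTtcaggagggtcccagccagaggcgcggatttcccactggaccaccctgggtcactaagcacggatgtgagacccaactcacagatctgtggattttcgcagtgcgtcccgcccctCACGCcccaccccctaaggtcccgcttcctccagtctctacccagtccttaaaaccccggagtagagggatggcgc
Cyp1a1: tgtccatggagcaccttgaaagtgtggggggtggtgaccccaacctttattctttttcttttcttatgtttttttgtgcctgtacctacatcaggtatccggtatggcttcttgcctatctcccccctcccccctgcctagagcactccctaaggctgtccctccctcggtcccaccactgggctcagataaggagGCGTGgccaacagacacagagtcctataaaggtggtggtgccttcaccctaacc
The Cyp1b1 window held ATTGTT at 197 to 192 bases before the start and CACGC at 76 to 72 bases before it. The Cyp1a1 window held GCGTG at 54 to 50 bases before the start and no SOX motif. Both motifs are short and common: of 32851 promoter windows of this length, 9.42% held AACAAT and 28.2% held GCGTG on either strand. A match is a description of the letters and not a bound site.

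Cyp2d22, a CYP2D enzyme in the family of the human drug oxidiser CYP2D6, read 572, 619 and 529 units in Sox7/Sox17 KD cells, against 332 and 420 units in Control cells. The groups did not overlap. The difference was 0.60 (SE 0.14, limma adjusted p = 0.036), a ratio of mean intensities of 1.53. Without any 1 of the 5 arrays it was no longer called, with an adjusted p of 0.062 to 0.16. It was the sole expressed gene of the 6 Cyp2d genes measured.

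Among uncalled P450s, Cyp2j9, of a subfamily that makes epoxides from arachidonic acid, stayed near the threshold. It had 25.5, 16 and 24.9 units in Sox7/Sox17 KD cells against 11.1 and 10.2 units in Control cells, both under the threshold, and it was not called (limma adjusted p = 0.062). Cyp4f16, of a subfamily that hydroxylates fatty acids at the omega end, had 93.7, 68.8 and 59.7 units in Sox7/Sox17 KD cells against 118 and 97.5 units in Control cells. The groups lay apart for that probe, narrowly, and its difference of -0.47 had a limma adjusted p of 0.13. The second Cyp4f16 probe gave -0.56 (limma adjusted p = 0.059). Its relative Cyp4f13 averaged 543 ± 29.6 units (SD, n = 3) in Sox7/Sox17 KD cells and 649 ± 17.8 units (SD, n = 2) in Control cells, a difference of -0.25 (limma adjusted p = 0.14). Cyp2s1, a P450 known mainly from epithelia outside the liver, averaged 336 ± 3.33 units (SD, n = 3) in Sox7/Sox17 KD cells and 415 ± 7.54 units (SD, n = 2) in Control cells, a difference of -0.29 (95% interval -0.51 to -0.070, limma adjusted p = 0.083). None of these 3 genes passed the test. The remaining tested P450s, Cyp2b10, Cyp2c39, Cyp4a10 and Cyp4x1, had differences between -0.30 and 0.22.

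**Figure D3:**
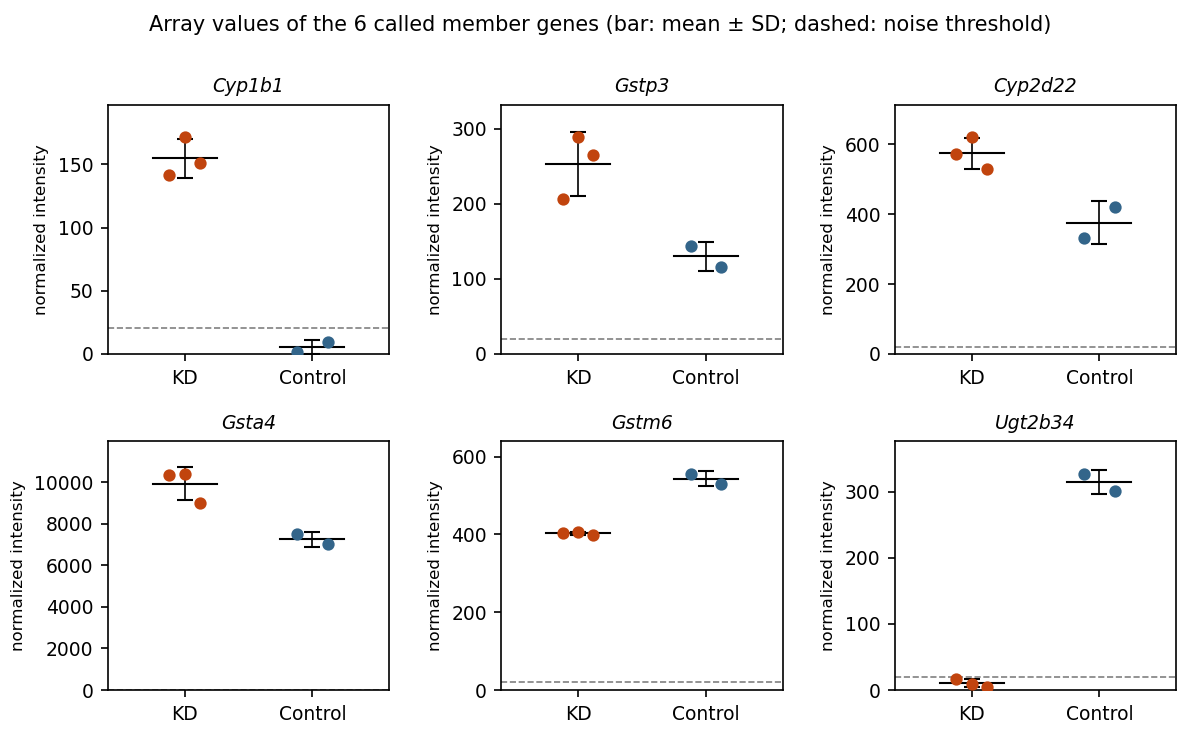
Normalized intensity of the 6 called genes on each array, with Sox7/Sox17 KD (3 arrays) left of Control (2 arrays), bars for the mean ± SD and the noise threshold dashed. The Control arrays of Cyp1b1 and the Sox7/Sox17 KD arrays of Ugt2b34 lie under the threshold, while the other 4 genes are above it on all 5 arrays.

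Among the glucuronosyltransferases, 4 genes were tested and Ugt2b34 fell. Enzymes of the UGT2B subfamily join glucuronic acid to steroids, bile acids and drugs. The Ugt2b34 probe (ILMN_2746475) read 16.6, 8.74 and 5.18 units in Sox7/Sox17 KD cells, against 328 and 302 units in Control cells. Every Sox7/Sox17 KD array was under the threshold and both Control arrays were well above it. The means were 10.2 ± 5.83 units (SD, n = 3) in Sox7/Sox17 KD cells and 315 ± 18.4 units (SD, n = 2) in Control cells, at least 15.6-fold lower (limma adjusted p = 0.00081). The call held with any 1 array left out (adjusted p at most 0.014). Those fits kept the filter over all 5 arrays, which Ugt2b34 passed only through Control, where it was high.

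In the GRCm38.p6 annotation Ugt2b34 stands at one end of a run of 8 of these genes, in the order Ugt2b34, Ugt2b1, Ugt2b35, Ugt2b5, Ugt2b37, Ugt2a3, Ugt2b38 and Ugt2a1. Ugt2b35 had 27.0, 21.0 and 21.7 units in Sox7/Sox17 KD cells against 18.3 and 15.6 units in Control cells, on either side of the threshold, with an uncalled difference of 0.25 (95% interval -0.03 to 0.53, limma adjusted p = 0.19). Ugt2a1 had 29.2, 13.5 and 35.3 units in Sox7/Sox17 KD cells against 40.1 and 24.8 units in Control cells, with overlapping groups and a difference of -0.23 (limma adjusted p = 0.60). The other 5 genes of the run were above the threshold on no array, so a fall like that of Ugt2b34 could not have been seen in them.

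The UGT1A enzymes include the bilirubin transferase and are encoded in a gene complex in which alternative first exons are spliced to shared later exons. Ugt1a2 had 4 probes. The brightest (ILMN_1225154) read 215, 194 and 204 units in Sox7/Sox17 KD cells against 195 and 197 units in Control cells, with overlapping groups and a difference of 0.05 (95% interval -0.18 to 0.29, limma adjusted p = 0.75). Its other 3 probes were too dim to test, so the gene's level rests on 1 probe of 4.

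Ugt1a7c belongs to the same complex, but its symbol ends in a letter, so it falls outside the symbol pattern. It is given because its probes behaved unlike those of Ugt1a2, and it was chosen after its values were seen. Of its 6 probes, 4 were tested and all 4 were called lower. The first (ILMN_1222543) read 78.9, 52.8 and 53.4 units in Sox7/Sox17 KD cells against 478 and 414 units in Control cells (-2.58, SE 0.17, limma adjusted p = 0.00096). The second (ILMN_2493826) read 33.1, 44.5 and 10.2 units in Sox7/Sox17 KD cells against 341 and 298 units in Control cells (-2.97, SE 0.34, limma adjusted p = 0.0048). Another (ILMN_1226936) was under the threshold on every Sox7/Sox17 KD array, with 19.8, 13.2 and 6.27 units against 225.5 and 178 units in Control cells, at least 9.95-fold lower (limma adjusted p = 0.0013). It passed the filter only through Control, where it was high. These 3 probes kept their calls with any 1 array left out. The last (ILMN_1225921) read 36.1, 30.3 and 43.6 units in Sox7/Sox17 KD cells against 60.0 and 62.8 units in Control cells (-0.56, limma adjusted p = 0.038), and was called in 1 of the 5 fits with an array left out, with adjusted p-values up to 0.18. The exons these probes read were not analysed here, so which UGT1A transcripts they count was not tested.

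**Figure D4:**
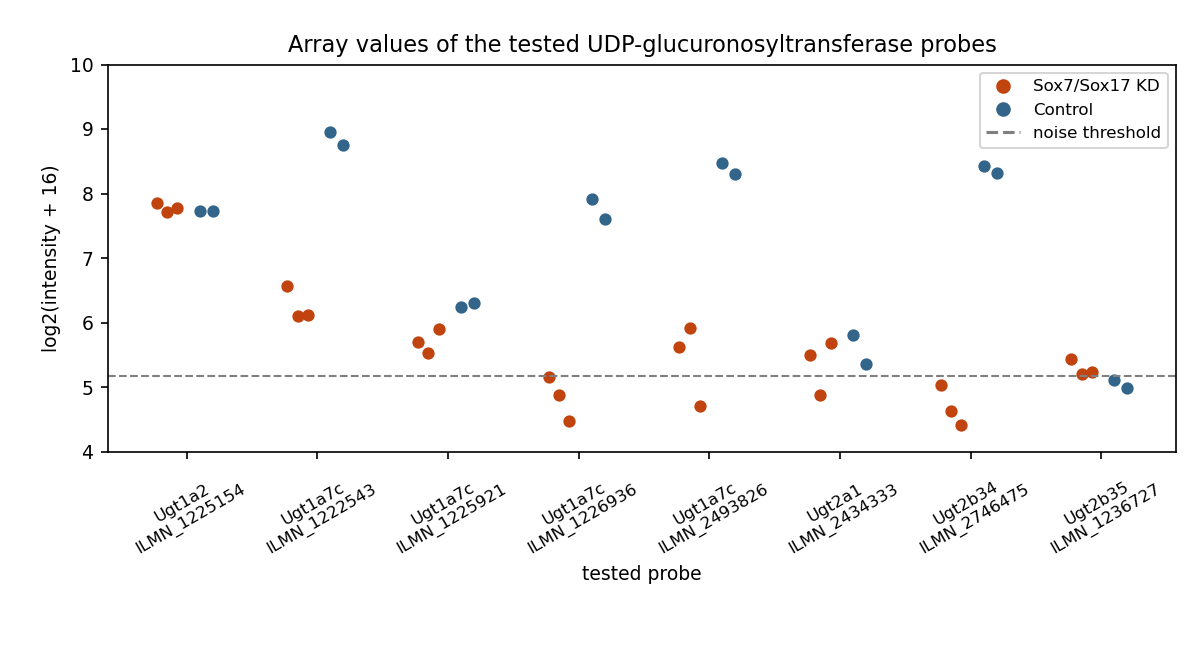
Array values of the tested glucuronosyltransferase probes on the log2(intensity + 16) scale, with Sox7/Sox17 KD (3 arrays) left of Control (2 arrays) and the noise threshold dashed. Ugt2b34 and 3 of the 4 Ugt1a7c probes are far lower on every Sox7/Sox17 KD array, while the Ugt1a2, Ugt2a1 and Ugt2b35 probes show no such gap.

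The promoters of Ugt2b34 and Ugt1a7c, whose probes fell, and of Ugt2b35, a neighbour that was not called, are printed for comparison. They are again the 250 bases before the RefSeq start on GRCm38.p6, read 5′ to 3′ on the gene's strand: Ugt2b34 at chr5:86906938-86907187 (minus strand), Ugt1a7c at chr1:88094751-88095000 (plus strand) and Ugt2b35 at chr5:87000610-87000859 (plus strand). No letter is in capitals, because none of the 5 motifs searched occurred.
Ugt2b34: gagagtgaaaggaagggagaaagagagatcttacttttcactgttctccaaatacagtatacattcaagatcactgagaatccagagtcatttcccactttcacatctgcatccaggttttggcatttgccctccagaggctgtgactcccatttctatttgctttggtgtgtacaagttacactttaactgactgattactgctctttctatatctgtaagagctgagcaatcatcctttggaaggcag
Ugt1a7c: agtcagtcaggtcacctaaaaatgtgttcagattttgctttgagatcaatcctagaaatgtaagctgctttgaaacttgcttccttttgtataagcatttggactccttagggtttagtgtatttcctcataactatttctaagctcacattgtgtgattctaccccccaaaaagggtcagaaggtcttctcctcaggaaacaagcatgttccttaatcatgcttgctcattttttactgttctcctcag
Ugt2b35: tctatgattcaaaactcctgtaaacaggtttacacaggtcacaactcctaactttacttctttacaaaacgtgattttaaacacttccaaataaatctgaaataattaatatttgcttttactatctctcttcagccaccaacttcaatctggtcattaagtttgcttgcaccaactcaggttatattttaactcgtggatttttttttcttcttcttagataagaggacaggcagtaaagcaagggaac
The motifs, searched on both strands, were AACAAT for SOX factors, GCGTG for the aryl hydrocarbon receptor, TGACNNNGC for Nrf2, GTTAAT for HNF1 and CAAAGTCCA for HNF4. That they are not in these windows says only that, and nothing of the factors. Windows were found for 79 of the 92 genes, 95 windows in all. AACAAT was in 10.5% of them, against 9.42% of all 32851 windows, and GCGTG in 21.1%, against 28.2%. TGACNNNGC was in 4.21%, against 10.2%, and GTTAAT in 10.5%, against 6.43%. CAAAGTCCA was in 5.26%, against 0.384%, in the windows of Cyp2c65, Cyp2c68, Cyp2c70, Cyp3a11 and Cyp3a16. These 5 genes were above the noise threshold on no array.

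Among the glutathione S-transferases, 16 genes were tested, of which 2 rose, 1 fell and 13 were not called, and the median difference was 0.06. Gstp3 belongs to the pi class and lies beside Gstp1. It had 206, 288 and 265 units in Sox7/Sox17 KD cells, against 144 and 116 units in Control cells. The groups were well apart. The difference was 0.88 (SE 0.17, limma adjusted p = 0.022), a ratio of mean intensities of 1.95. It was called without Sox7/Sox17 KD replicate 1 and lost its call without any 1 of the other arrays, with adjusted p-values up to 0.13. Gstp1, the main pi-class enzyme, was represented by a probe with 12733, 13488 and 11892 units in Sox7/Sox17 KD cells against 12028 and 10701 units in Control cells. Those groups overlapped, and the difference was 0.16 (95% interval -0.11 to 0.43, limma adjusted p = 0.37). Its other probes gave 0.13 and -0.02, also not called. Paralogs as alike as these can share a probe's signal, which was not tested.

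In the alpha class, Gsta4, which conjugates the lipid peroxidation product 4-hydroxynonenal, rose. It had 10350, 10421 and 9025 units in Sox7/Sox17 KD cells, against 7502 and 7005 units in Control cells, without overlap. The difference was 0.45 (SE 0.11, limma adjusted p = 0.045), a ratio of mean intensities of 1.37, and without any 1 array it was not called (adjusted p 0.055 to 0.21). Gsta3, an enzyme also known for steroid isomerase activity, averaged 204 ± 5.19 units (SD, n = 3) in Sox7/Sox17 KD cells and 164 ± 15.7 units (SD, n = 2) in Control cells, a difference of 0.29 (limma adjusted p = 0.11). Gsta2 had a difference of -0.28 (limma adjusted p = 0.30). The alpha-class genes thus gave differences on both sides of 0, with 1 call.

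The mu class (Gstm), whose enzymes conjugate epoxides and other electrophiles, was expressed in 6 of 7 genes. Gstm6 had 404, 407 and 398 units in Sox7/Sox17 KD cells, against 557 and 531 units in Control cells. The groups did not overlap, and Gstm6 fell by 0.42 (SE 0.092, limma adjusted p = 0.032). Without any 1 array it was not called (adjusted p 0.075 to 0.15). A second Gstm6 probe had 16.5, 15.5 and 4.01 units in Sox7/Sox17 KD cells against 12.6 and 15.1 units in Control cells. It was above the threshold on no array and was not tested, so the call rests on 1 probe. Gstm2 had 2007, 1876 and 1735 units in Sox7/Sox17 KD cells against 2587 and 2420 units in Control cells. Its difference of -0.42 was as large as that of Gstm6 and missed the threshold by the last digit (limma adjusted p = 0.05002), and its second probe gave -0.31. Neither Gstm2 probe was called with any 1 array left out. Gstm1 had 430, 509 and 413 units in Sox7/Sox17 KD cells against 586 and 575 units in Control cells (-0.36, limma adjusted p = 0.099). A second Gstm1 probe was above the threshold on no array and was not tested. On their tested probes, Gstm6, Gstm2 and Gstm1 had every Sox7/Sox17 KD array below both Control arrays, with 1 called.

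Gstm7 had 28.6, 22.3 and 28.2 units in Sox7/Sox17 KD cells against 83.8 and 31.6 units in Control cells. The Control arrays lay far apart, with replicate 2 close to the Sox7/Sox17 KD arrays, and the difference of -0.71 had a 95% interval of -1.44 to 0.02 (limma adjusted p = 0.17). Without Control replicate 2 it was called, at -1.24 (limma adjusted p = 0.024). Gstm5 gave -0.12 and Gstm4 0.19, both with overlapping groups. In the GRCm38.p6 annotation these genes follow each other in the order Gstm5, Gstm7, Gstm6, Gstm3, Gstm2, Gstm1 and Gstm4. Of the 7 tested Gstm probes, 5 were lower on every Sox7/Sox17 KD array than on both Control arrays, and groups did not overlap, in either direction, for 51.6% of all genes. The median difference over the 6 genes was -0.39, and mu-class paralogs can also share a probe's signal.

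**Figure D5:**
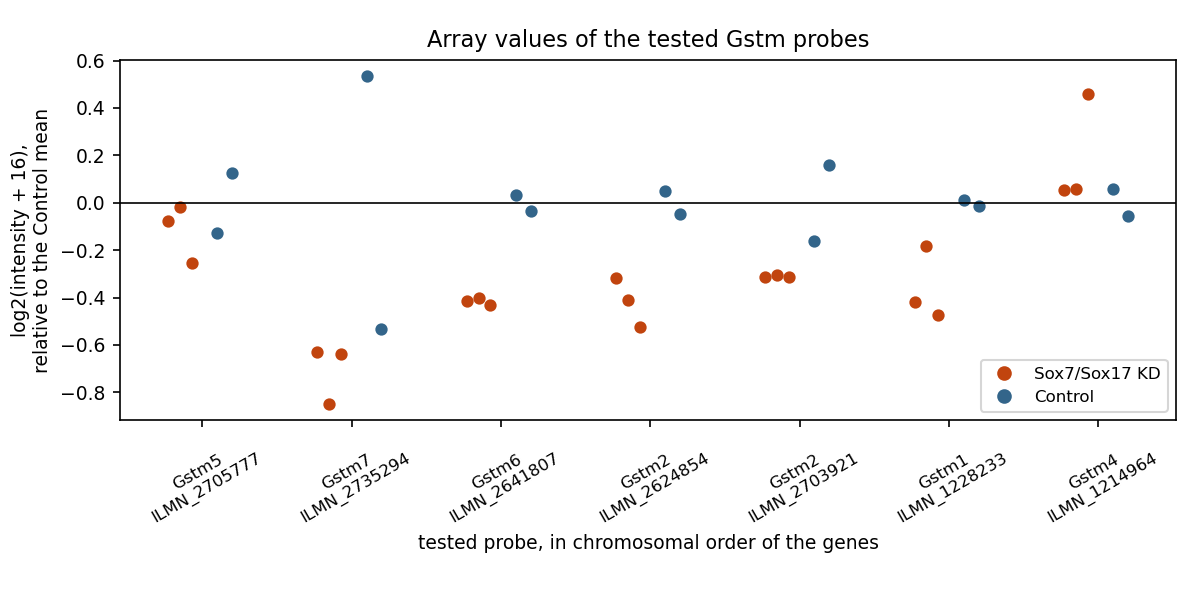
The 7 tested Gstm probes on each array, as log2(intensity + 16) minus the Control mean of that probe, in chromosomal order, with Sox7/Sox17 KD (3 arrays) left of Control (2 arrays). The Sox7/Sox17 KD points of Gstm7, Gstm6, Gstm1 and both Gstm2 probes lie below both Control points, those of Gstm5 and Gstm4 overlap them, and the Control points of Gstm7 are far apart.

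The remaining glutathione S-transferases did not pass the test. Gstt1, of the theta class that acts on small halogenated molecules, had 56.2, 30.8 and 61.1 units in Sox7/Sox17 KD cells against 18.3 and 37.9 units in Control cells, with overlapping groups and a difference of 0.57 (95% interval -0.11 to 1.25, limma adjusted p = 0.22). Gstt2 and Gstt3 gave 0.11 and -0.02. Gstz1, the maleylacetoacetate isomerase of tyrosine breakdown, averaged 1624 ± 80.8 units (SD, n = 3) in Sox7/Sox17 KD cells and 1275 ± 103 units (SD, n = 2) in Control cells, a difference of 0.35 (95% interval 0.09 to 0.60, limma adjusted p = 0.079). Gsto1, of the omega class, gave 0.01 (95% interval -0.24 to 0.27).

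Of the sulfotransferases, 3 were tested with limma and 0 were called, nor was any at an unadjusted p below 0.05. Sult4a1, a brain-enriched member with no settled substrate, had 2553, 2213 and 2274 units in Sox7/Sox17 KD cells against 2551 and 2275 units in Control cells, a difference of -0.04 (95% interval -0.32 to 0.24, limma adjusted p = 0.84). Sult2b1, which sulfates cholesterol and hydroxysteroids, had 89.1, 87.6 and 105 units in Sox7/Sox17 KD cells against 105 and 87.6 units in Control cells (-0.03, 95% interval -0.34 to 0.27, limma adjusted p = 0.89). A second Sult2b1 probe gave 0.30 (95% interval -0.06 to 0.65) and was not called, so its probes differ in sign. Sult3a1 stayed around the threshold, with a difference of -0.12. The groups overlapped for all 3 genes.

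The other genes of these pathways were read from 8 lists. Of the xenobiotic and lipid sensing receptors and their partners, 15 were tested, 1 rose and 5 fell, with a median difference of -0.02. The liver-enriched factors Foxa2 (-1.79, limma adjusted p = 0.0035) and Hnf4a (-1.54, limma adjusted p = 0.00096) fell, as did Foxa1 (-0.71), and the orphan receptor Nr2f1 rose (1.07). Foxa1 was not called without either Control replicate, and the list had 2 to 4 lower calls and 1 higher call with 1 array left out. Of the Nrf2 pathway, 19 were tested and 21.1% were called, near the 17.0% of all genes. In the limma fit 4 rose and 0 fell, with 6 higher and 4 lower at an unadjusted p below 0.05 and a median of 0.21. The 4 that rose were the cystine transporter Slc7a11 (0.98), the sulfiredoxin Srxn1 (0.57), the quinone reductase Nqo1 (0.56) and the factor itself, Nfe2l2 (0.50). With 1 array left out this list had 0 to 3 higher calls. Slc7a11 lost its call without Control replicate 2, Srxn1 and Nqo1 without any 1 array but Sox7/Sox17 KD replicate 2, and Nfe2l2 without any 1 array.

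The electron donors and suppliers of conjugation substrates had 16 genes tested, 1 higher and 3 lower. Dpep1, a dipeptidase of glutathione breakdown, fell (-1.56), as did the cytochrome b5 reductase Cyb5r1 (-0.75) and Slc35b3, a PAPS transporter (-0.48), while Cyb5r2 rose (0.52). With 1 array left out there were 0 higher and 0 to 3 lower calls. Cyb5r2 was not called without any 1 array, Cyb5r1 without either Control replicate, Dpep1 without Control replicate 2 or Sox7/Sox17 KD replicate 3, and Slc35b3 without any 1 array but Sox7/Sox17 KD replicate 1. Among other oxidising, reducing and hydrolysing enzymes, 23 were tested, 4 rose, Nqo1 again among them, and 2 fell. Akr1c12, an aldo-keto reductase, fell (-1.20), and the carbonyl reductase Cbr3 (1.16) and Aldh3b1 (0.91) rose. The retinaldehyde dehydrogenase Aldh1a1 was at least 2.33-fold lower, and passed the filter only through Control, where it was high. Left-out arrays gave 1 to 4 higher and 1 to 2 lower calls, and of these 4 genes Cbr3 lost its call without Control replicate 2 and Aldh1a1 without Control replicate 1. Among other conjugating enzymes and deconjugating hydrolases, 16 were tested, 2 rose and 2 fell, led by Ptges (1.03), which makes prostaglandin E2, and by Mgst3 (-0.71), a microsomal glutathione transferase. Tpst1, which sulfates protein tyrosines, rose (0.68) and the lysosomal sulfatase Arsa fell (-0.67). The 4 genes were not called without either Control replicate, and the list had 0 to 3 higher and 0 to 2 lower calls with 1 array left out.

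P450s outside the CYP1 to CYP4 families had 11 genes tested, 2 higher and 1 lower. Cyp11a1, which cleaves the cholesterol side chain to start steroid synthesis, had 127, 160 and 153 units in Sox7/Sox17 KD cells against 30.5 and 18.6 units in Control cells (2.02, SE 0.17, limma adjusted p = 0.0016). The retinoic acid hydroxylase Cyp26b1 rose (1.37), and the prostacyclin synthase Ptgis fell (-0.66). Neither of the last 2 was called without Control replicate 2. Of the steroid synthesis genes, 16 were tested, 2 rose and 2 fell: Cyp11a1 again and the mitochondrial translocator protein Tspo (0.65) rose, and Srd5a3 (-0.48) and Hsd17b6 (at least 1.81-fold lower) fell. Hsd17b6 passed the filter only through Control, where it was high. With 1 array left out this list had 1 to 2 higher and 0 to 1 lower calls, and Srd5a3 lost its call without any 1 array, Tspo without either Control replicate or Sox7/Sox17 KD replicate 3, and Hsd17b6 without Control replicate 2. Of the drug and conjugate transporters, 11 were tested with limma, 2 rose and 0 fell (4 higher and 0 lower at an unadjusted p below 0.05). They were the organic solute transporter subunit Slc51a (1.33, limma adjusted p = 0.0013) and the conjugate exporter Abcc3. Abcc3 had 15.1, 36.8 and 22.1 units in Sox7/Sox17 KD cells against -3.40 and 2.65 units in Control cells, at least 1.14-fold higher (limma adjusted p = 0.021). Both its Control arrays and Sox7/Sox17 KD replicate 1 were under the threshold, so it passed the filter only through Sox7/Sox17 KD, where it was high. Abcc3 lost its call without either Control replicate or without Sox7/Sox17 KD replicate 3. The called share was highest for the receptors and their partners, at 40.0%, against 17.0% of all genes. The other lists lay between 18.2% (drug and conjugate transporters) and 27.3% (P450s outside the CYP1 to CYP4 families). Whether any of these shares differs from that of all genes was not tested.

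Most tested primitive and parietal endoderm, visceral endoderm and fibroblast markers differed between the groups. Embryonal carcinoma, steroidogenic and hepatocyte markers did so only in part. Of the primitive and parietal endoderm markers, 13 were tested, and all 13 fell, the targeted Sox7 and Sox17 among them. Their summed level was 26354 to 29789 units in Sox7/Sox17 KD cells and 100726 to 101863 units in Control cells, with 12 of 14 above the threshold on all 5 arrays. Visceral endoderm markers had 5 lower and 1 higher of 7 tested, and summed to 1702 to 1856 units in Sox7/Sox17 KD cells and 4757 to 5012 units in Control cells, with Afp, Apoa4 and Cer1 above the threshold on no array. Fibroblast and mesenchyme markers had 6 higher of 7 tested and summed to 2304 to 2560 units in Sox7/Sox17 KD cells and 1099 to 1188 units in Control cells, with Col1a2, Col3a1, Lum and Postn above the threshold on no array. Embryonal carcinoma markers had 3 higher and 1 lower of 8 tested, and summed to 24686 to 27297 units in Sox7/Sox17 KD cells and 19442 to 21473 units in Control cells. Nanog, the largest part of that sum, averaged 14001 units in Sox7/Sox17 KD cells and 10157 units in Control cells. Its call was lost without any 1 array. Lin28a fell (-1.05), and 4 of the 8 were not called. Steroidogenic cell markers had 2 higher of 5 tested, and summed to 421 to 491.5 units in Sox7/Sox17 KD cells and 290.3 to 341 units in Control cells. Cyp11a1, already counted above, averaged 147 units in Sox7/Sox17 KD cells and 24.5 units in Control cells. The median difference over the 5 steroidogenic genes was -0.0041, and 3 were not called. Hepatocyte markers had 1 higher of 5 tested and summed to 3593 to 3884 units in Sox7/Sox17 KD cells and 2628 to 2637 units in Control cells, with Alb, Serpina1a, Tat, Apoh, Fgb and Tdo2 above the threshold on no array. Fah, an enzyme of tyrosine breakdown, makes up most of that sum (3580 units in Sox7/Sox17 KD cells and 2471 units in Control cells), while the median difference over the 5 genes was -0.33 and the other 4 were not called. With 1 array left out, 12 to 13 primitive and parietal endoderm, and 5 visceral endoderm markers were called lower. In the same fits 5 to 6 fibroblast, 0 to 2 embryonal carcinoma, 0 to 1 hepatocyte and 1 to 2 steroidogenic markers were called higher. The part of these markers' cell types in the changes of Cyp1b1, Ugt2b34 and the other enzymes was not tested.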

How the data were processed

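RNA of the 5 samples was hybridised to Illumina arrays as biotinylated cRNA, per the labels' protocols. The authors deposited 1 normalized intensity per probe and array. Values below 0 and an almost identical distribution on every array show that background had been subtracted and the arrays brought to a common scale. The sources used here do not name the software. A second deposited table was left out: its 10 per-sample columns match no sample's labels.

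Probes were named from the platform annotation (20984 with 1 symbol, 1 with several, 3628 unlisted), and all 92 enzyme symbols were unchanged in RefSeq (GRCm38.p6). Of several tested probes of a gene, the one with the highest mean stood for it, which gave 9685 genes. The test was limma 3.58.1 in R 4.3.3 (lmFit, eBayes, 3 residual degrees of freedom, no covariate) on log2(intensity + 16), adjusted over 13624 probes. It was tested on simulated data. An "at least" fold is the bright group's mean log2 intensity minus the mean, in the dim group, of the higher of threshold and signal, without the offset. Tables and promoter searches used pandas 2.3.3 under Python 3.11.15, and matplotlib 3.10.9 drew the figures. The number of arrays limits the precision.

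The members and lists were chosen with earlier results of these data known. Named with values were every called enzyme gene, the 3 brightest of each family and the 2 uncalled genes of each family with the largest difference, and up to 4 called genes of each list. Other genes, such as undetected liver enzymes and the remaining Gstm genes, were chosen after their values were seen. Deviations of samples with the same replicate number correlated at 0.0071 and 0.073. The deviations of the 2 Control arrays mirror each other, so this check can hardly tell whether the numbers pair samples. The main analysis did not pair them, and the replicate block did.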

Additional observations from a re-analysis of the deposited data

How the results depend on the processing

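Cyp1b1 and Ugt2b34 kept their direction and call under every alternative run in which they were tested. With probes required on all 5 arrays neither could be tested. Setting the array medians equal could change little, because the log2 medians already lay between 8.4086 and 8.4098. The enzymes called, 6 in the main analysis, numbered 2 (1 higher, 1 lower) with the replicate block, which called 828 of all genes against 1643 without it. With 1 array left out there were 2 to 3 called enzymes, 1 to 2 higher and 1 to 2 lower, and 443 to 1107 of all genes, where the lowest number came without Control replicate 2. An offset of 4 called 4 enzymes (2 higher, 2 lower), and an offset of 64 called 9 (5 higher, 4 lower). With no filter on dim probes 770 genes were called, with 4 enzymes among them (1 higher, 3 lower). There Cyp2s1 was added and 3 of the 6 main calls were lost. With an intensity trend 2621 genes were called, with 9 enzymes among them (5 higher, 4 lower). The fits with an array left out had fewer samples, and the fit with no filter tested more genes. Those with another offset, the replicate block, equal medians or an intensity trend used the same 5 arrays and 9685 genes. Why these counts differ was not tested. Gstm2 was called under 5 of the alternatives. It was not called with an offset of 4, no filter on dim probes or the replicate block. Nor was it called with any 1 array left out, where its difference ran from -0.47 to -0.36. Uncalled values changed sign in 8 of the 33 tested genes: Sult2b1 was 0.13 with the mean over probes and -0.15 to 0.082 with 1 array left out, where Sult4a1 ran from -0.12 to 0.042, Ugt2a1 from -0.46 to 0.0088, Sult3a1 from -0.28 to 0.0495, Gstt2 from -0.28 to 0.51, Cyp4a10 from -0.32 to 0.44, Gstm5 from -0.24 to 0.0090 and Gsto1 from -0.03 to 0.07. The cause was not tested. Of the alternatives' values for the 20 enzymes named by rule, 208 kept direction and side of the threshold, 28 lost the call, 8 gained it and 9 changed sign. Scanner signals with detection p-values were not run, because their columns match no sample. Signal over background limits the 59 genes that could not be tested.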
